A study of Bos taurus with 48 samples.

Results

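The proteasome subunits were described in the liver of grazing dairy cows around calving, and their members were chosen by name alone. Every spot whose written gene name began with PSMA, PSMB, PSMC, PSMD or PSME and a digit was taken, except PSMB8 and PSMB9, which gave 87 of the 43803 spots on the array, printed from 84 probes under 39 written names. The gene names in the annotation had lost the digit 0, so the name PSMB1 could stand for PSMB1 or PSMB10, and the name PSMD1 for PSMD1 or PSMD10. The 2 probes written as PSMB1 and the 6 written as PSMD1 were therefore kept apart, and the probes of every other gene were averaged on each array. This gave 45 features out of 15019 tested, and all 45 passed the minimum of 24 arrays with a value out of 48. The feature PSMC3IP is a partner of the meiotic recombination enzymes that shares the letters but is no subunit, and it was set apart. It was called in no comparison. The other 44 features, 36 single genes and 8 single probes, were 16 features of the core particle, 24 of the regulatory particle with its assembly chaperones, and 4 activators.

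The proteasome is the large protease that degrades proteins tagged with ubiquitin. Its core particle is a barrel with an outer ring of alpha subunits (PSMA genes) at each end and inner rings of beta subunits (PSMB genes) that carry the cutting sites, and its regulatory particle has a base with a ring of ATPases (PSMC genes) that unfold the substrate and a lid whose deubiquitinase removes the ubiquitin chain. The non-ATPase subunits (PSMD genes) make up the lid and the rest of the base, ubiquitin receptors included. The activators (PSME genes) open the barrel without ubiquitin, and in cells exposed to interferon the cutting subunits are replaced by PSMB8, PSMB9 and PSMB10, the immunoproteasome. In the liver, as in other tissues, it clears misfolded and short-lived proteins, and a functional particle needs all of its standing subunits.

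The study asked whether the condition of a cow before calving changes how her liver responds to the feeding level. Liver RNA came from 32 cows in 4 treatments of 8 cows: B5F125 and B5F75 held cows of body condition score (BCS) 5 on a 10-point scale fed 125 or 75% of their energy requirement before calving, and B4F125 and B4F75 held thinner cows of BCS4 at the same feeding levels. All 4 treatments grazed pasture, whose allowance set the feeding level, and each cow was biopsied on 3 days, which were −7, 7 and 28 d from calving. The cows were of mixed age and breed, the treatments differed in both according to the methods, and neither was given per cow, so BCS or feeding cannot be told apart here from age and breed. RNA of 2 cows was hybridised to each of the 48 Agilent arrays with 1 cow in Cy5 and the other in Cy3, so each value is a log2 ratio between 2 cows and not a level. The cows formed 16 pairs, each with 1 array per day or day comparison. In 12 pairs (36 arrays) cows of 2 treatments were compared on the same day, and in 4 pairs, 1 per treatment (12 arrays), cows of the same treatment were compared across days. Feeding and BCS therefore rest on 12 cow pairs, whereas the differences between days rest on 4. The ratios were taken as Cy5 over Cy3, which is the convention of the scanner software and the likely direction; were it the other way round, every sign below would turn.

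Blank spots made up 15.95% of the values (1.42 to 21.49% per array), and 43 of the 44 features had a value on all 48 arrays. Brightness could be recovered from the ratios only as a lower bound. By that measure the brightest spot of 14 measured hepatocyte markers of 15 lay between the 93.8th and the 100th percentile of all spots, as liver should show, and all 44 proteasome features lay above the median spot (53.6th to 98.1th percentile). Mean RNA integrity (RIN) was 8.18 ± 0.39 at −7 d, 7.77 ± 0.43 at 7 d and 8.17 ± 0.45 at 28 d (SD, from the labels), so the lowest value coincided with 7 d, and its part in the day differences was not tested. Because whole liver was biopsied, fewer cells of a type and less RNA per cell cannot be told apart.

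The proteasome features varied less between arrays than genes in general, but the genes compared were not matched for brightness or number of probes. The features were bright, at a median of the 90.4th percentile of spots. This limit also holds for the group spans, the shares of intervals inside 1.5-fold and the correlations between features below. Their residual SD around the fitted groups had a median of 0.367 on the log2 scale, against 0.586 over all genes and 0.490 over the 10821 genes measured on all arrays, and 37 of the 44 lay below this last value. PSMA6, a subunit of the alpha ring, was the steadiest (0.239), and PSMD1 probe 6, for the large scaffold of the base or for the assembly chaperone PSMD10, was the most variable (0.833). PSMA6 was the mean of 3 probes, which gave 0.40, −0.09 and −0.24 at 28 against 7 d. The 12 groups of treatment and day also lay close together. The span between the highest and the lowest fitted group mean of a feature had a median of 0.367, against 0.728 over all genes and 0.592 over the genes measured on all arrays. It was narrowest for PSMC5, an ATPase of the base (0.17), and for PSMA3 of the alpha ring (0.18), and widest for PSMD1 probe 6 (1.05), PSMD1 probe 2 (0.99), the lid subunit PSMD3 (0.88), PSMB6, which carries a cutting site (0.75), and PSMB1 probe 2 (0.68). A small mean can cover probes of opposite sign. The 3 PSMC5 probes gave 0.27, −0.14 and −0.19 at 28 against −7 d. By particle, the median level of the core features ran between −0.07 (B4F125 at 28 d) and 0.14 (B5F75 at 28 d) relative to the mean of the 12 groups. The regulatory features ran between −0.08 (B4F125 at 28 d) and 0.06 (B5F125 at −7 d), and the activators between −0.09 (B4F125 at 7 d) and 0.16 (B5F125 at 7 d).

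**Figure D1:**
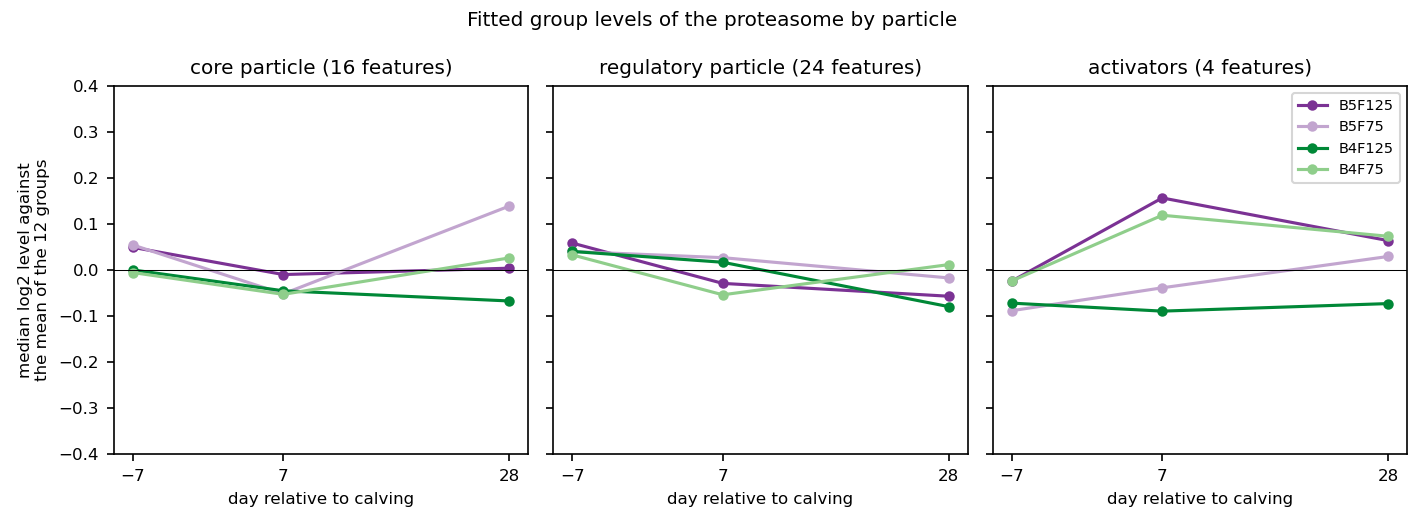
Median fitted log2 level of the proteasome features, relative to the mean of the 12 groups (y axis), by day relative to calving (x axis), with 1 panel per particle and 1 line per treatment. The core stays between −0.07 and 0.14 and the regulatory particle between −0.08 and 0.06 in every treatment and on every day.

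No proteasome feature was called between days. A feature was called at P of at most 0.01 with a change of at least 1.5-fold, the thresholds that the study set on its feeding comparisons in a mixed model, here applied to the moderated test of limma in every comparison. At 7 against −7 d, 0 of 44 were called against 1.49% of all genes, 3 had unadjusted P below 0.05, and the lowest Benjamini-Hochberg adjusted P was 0.475. At 28 against −7 d, 0 were called against 2.08%, 2 had P below 0.05 and the lowest adjusted P was 0.32. At 28 against 7 d, 0 were called against 1.85%, 3 had P below 0.05 and the lowest adjusted P was 0.382. With a Benjamini-Hochberg adjusted P below 0.05 as the rule, 0 features passed in any comparison described here, so the calls below rest on the unadjusted P. The median log2 change of the 44 features was −0.05, −0.02 and 0.01 in these comparisons, beside −0.02, 0.00 and 0.02 over all genes. The intervals took their width from the residual variance of the fit over all arrays, those that compared cows on the same day included. They do not show the spread of the 4 cow pairs compared across days. The value of such a pair was its log2 ratio, Cy5 over Cy3, less the mean of its 3 arrays. It was then turned to read the later day over the earlier. The mean taken off holds the difference between the 2 cows and between the dyes. This step ties the 3 values of a pair to each other, so they are not separate observations. At 28 against −7 d the SD of these pairs ran from 0.09 (PSMD14) to 0.96 (PSMD1 probe 6). The shares that follow therefore describe the fit and do not bound the change between cows. The 95% interval lay inside 1.5-fold for 40 of 44 features (90.9%) at 7 against −7 d, where this was so for 43.0% of all genes, for 38 (86.4%) at 28 against −7 d and for 37 (84.1%) at 28 against 7 d.

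In the core particle, 5 of 16 features lay above 0 at 7 against −7 d and 8 of 16 at 28 against −7 d, with medians of −0.05 and 0.01. The median of the alpha ring was −0.03 at 7 against −7 d and 0.02 at 28 against −7 d (7 genes), and that of the beta ring was −0.05 and 0.01 (8 features). 2 core subunits had P below 0.05 at 7 against −7 d. PSMB11, the beta subunit that human and mouse make in the thymus, had a log2 change of −0.31 (95% interval −0.60 to −0.02, adjusted P = 0.572), but its 4 cow pairs gave 0.28 in B5F125, −0.47 in B5F75, −0.27 in B4F125 and −0.79 in B4F75. PSMA7 of the alpha ring had −0.29 (SE 0.14, adjusted P = 0.576) at 7 against −7 d and 0.31 (SE 0.14, adjusted P = 0.414) at 28 against 7 d. At 28 against 7 d its pairs were 0.22 in B5F125, 0.23 in B5F75, 0.24 in B4F125 and 0.56 in B4F75. All 4 lay above 0, although the mean over only those PSMA7 probes that had a value on all arrays was 0.17. PSMB6 gave 0.36, 0.20, 0.47 and 0.06 at 28 against −7 d in the pairs of B5F125, B5F75, B4F125 and B4F75, each above 0, with a mean change of 0.27 (SE 0.17, adjusted P = 0.554). It was 0.08 without the B4F125 pair, and its probe with a value on all arrays gave 0.08 where the dim probe gave 0.46.

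In the regulatory particle, 6 of 24 features lay above 0 at 7 against −7 d and 8 of 24 at 28 against −7 d, each time with a median of −0.08. The ATPase ring had medians of −0.07 and −0.06, with 1 of 6 genes above 0 in either comparison, and the lid had −0.03 and −0.01 (8 genes). The ubiquitin receptor PSMD4 and the base scaffold PSMD2 had changes of −0.31 (adjusted P = 0.483) and −0.16 (adjusted P = 0.704) at 28 against −7 d. Both were below 0 in all 4 cow pairs, with PSMD4 at −0.35 in B5F125, −0.13 in B5F75, −0.07 in B4F125 and −0.70 in B4F75. The 2 brighter PSMD4 probes gave −0.03 and −0.18, and the 2 dimmer ones −0.65 and −0.37. For PSMD2 the B4F125 array lay at 0.05 before the mean of the pair was taken off. Of the 6 probes for PSMD1 or PSMD10, all 6 lay below 0 at 7 against −7 d (median −0.12), none with P below 0.05. Probe 6 had −0.65 (SE 0.31, adjusted P = 0.42) at 28 against −7 d, but its pairs ranged from −1.84 in B4F75 through −0.75 in B5F75 and −0.52 in B5F125 to 0.50 in B4F125, and the fitted value was −0.13 without the B4F75 pair and −1.09, past the threshold, without the B4F125 pair. Probe 1 had 0.38 (SE 0.16, adjusted P = 0.382) at 28 against 7 d, with pairs at 0.11 in B5F125, 0.45 in B5F75, 0.39 in B4F125 and 0.56 in B4F75. Among the chaperones that assemble the ATPase ring, PSMD5 had −0.36 (SE 0.16, adjusted P = 0.428) at 28 against 7 d with 2 of 4 pairs below 0. Its brighter probe gave −0.18 and its dimmer probe −0.55. PSMD9 had 0.20 (SE 0.12, adjusted P = 0.704) at 7 against −7 d with 4 of 4 pairs above 0. Before the mean of the pair was taken off, its B4F125 array lay at −0.08.

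Among the activators, PSME2 was the feature with the smallest P against −7 d on both days. PSME2 forms with PSME1 the PA28 ring, which interferon induces. At 7 against −7 d its pairs were 0.40 in B5F125, 0.23 in B5F75, 0.07 in B4F125 and 0.43 in B4F75, with a mean of 0.28 (SE 0.11, 95% interval 0.05 to 0.51, adjusted P = 0.475). At 28 against −7 d they were 0.10 in B5F125, 0.25 in B5F75, 0.35 in B4F125 and 0.47 in B4F75, with a mean of 0.29 (SE 0.11, 95% interval 0.06 to 0.52, adjusted P = 0.32). All 4 pairs lay above 0 on both days, and at 28 against 7 d they fell on both sides of 0, between −0.29 and 0.28. Before the mean of the pair was taken off, the B4F125 array at 7 against −7 d lay at −0.01. The other arrays against −7 d lay above 0. Both probes of the gene gave the same sign, 0.26 and 0.30 at 7 d and 0.39 and 0.20 at 28 d against −7 d. Its partner PSME1 had 0.07 (SE 0.12, adjusted P = 0.932) at 7 and 0.10 (SE 0.12, adjusted P = 0.789) at 28 against −7 d. At 28 against 7 d PSME1 had a change of 0.03 (adjusted P = 0.957), with pairs from −0.39 in B5F125 to 0.39 in B4F125. In a list of interferon-responsive genes, 4 of 15 measured genes lay above 0 at 7 against −7 d (median −0.11). At 28 against −7 d 6 of 15 did (median −0.03). A link of PSME2 to interferon was not tested.

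**Figure D2:**
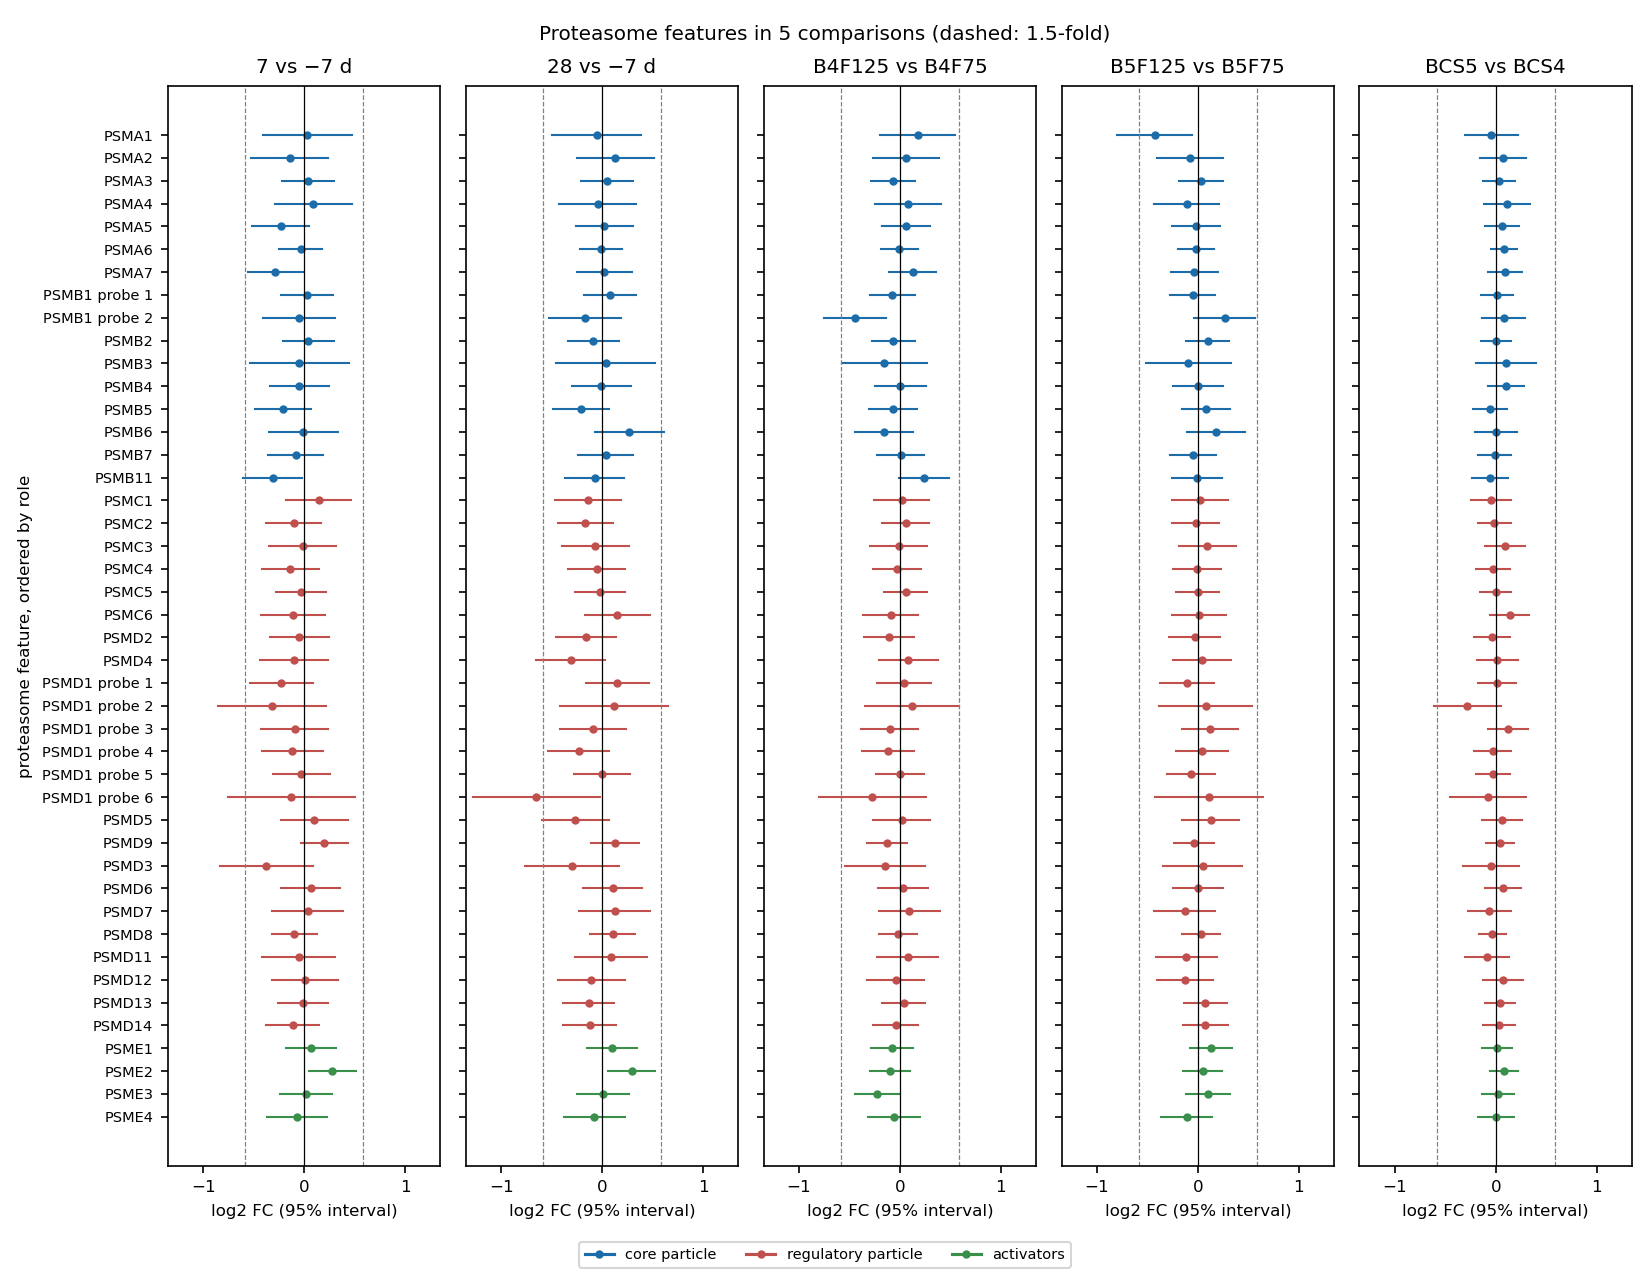
Log2 change (x axis, point, with its 95% interval as the bar) of each of the 44 proteasome features (y axis, ordered by role) in 5 comparisons, with dashed lines at 1.5-fold. The points crowd around 0 in every panel; for 40 of 44 features the interval stays inside 1.5-fold at 7 against −7 d, and PSMD1 probe 6 has the widest intervals.

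**Figure D3:**
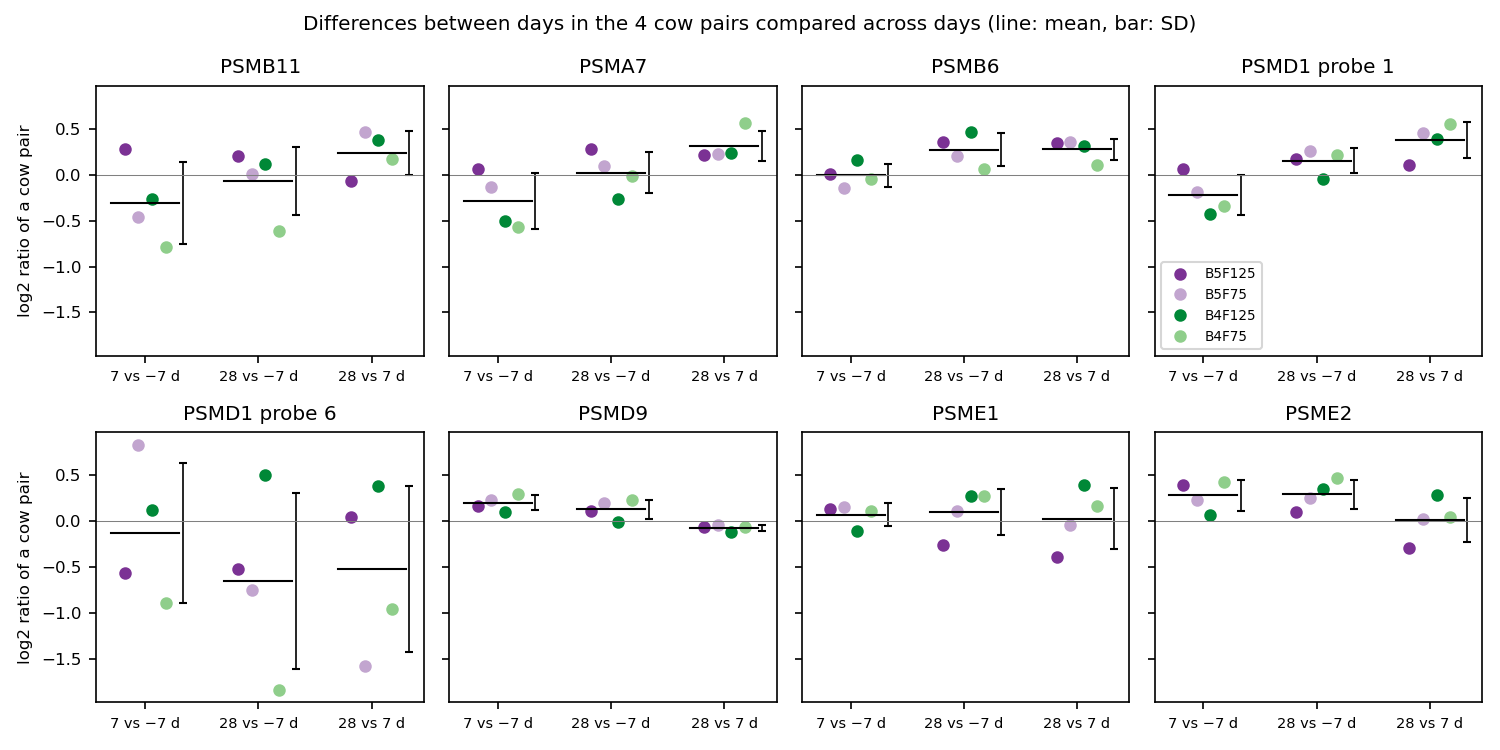
Log2 ratio between days, less the mean of the pair's 3 arrays (y axis), of 8 proteasome features in each of the 4 cow pairs compared across days (points, coloured by treatment). The 3 day comparisons are on the x axis, with the mean as a line and the SD as a bar (n = 4). PSME2 lies above 0 in all 4 pairs at 7 and at 28 against −7 d, whereas PSMD1 probe 6 ranges from −1.84 to 0.50 at 28 against −7 d.

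Within a treatment, 2 features were called over the 12 day comparisons. These comparisons rest on 1 cow pair each for their direct part. PSMB6 was called higher at 28 against 7 d in B5F75 (0.70, SE 0.23, adjusted P = 0.379), where 2.07% of all genes were called, and PSMD3 was called lower at 7 against −7 d in B5F125 (−0.88, SE 0.31, adjusted P = 0.643), where 1.39% were called. In each gene the call came from a dim probe. The PSMB6 probe with a value on all arrays gave 0.33 and the dim probe, with a value on 47 arrays, gave 1.08. The PSMD3 probe with a value on all arrays gave −0.22 and the dim probe, on 45 arrays, gave −1.55, and with the probes on all arrays alone neither gene was called. With each probe on its own, a bright PSMD8 probe was also called at 28 against 7 d in B5F75 (0.595, SE 0.19). A dim PSME4 probe was called at 7 against −7 d in B4F75 (1.57, SE 0.51). PSMB11 had −0.55 (SE 0.20, adjusted P = 0.339) at 7 against −7 d in B4F75, short of 1.5-fold, where 2.3% of genes and 0 proteasome features were called. In the other 9 comparisons 0 features were called. All genes were called there at 1.78% (28 against −7 d) and 1.32% (28 against 7 d) in B5F125, at 1.9% (7 against −7 d) and 1.5% (28 against −7 d) in B5F75, at 0.82% (7 against −7 d), 0.746% (28 against −7 d) and 1.31% (28 against 7 d) in B4F125, and at 3.06% (28 against −7 d) and 2.35% (28 against 7 d) in B4F75.

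Averaged over the days, the feeding level left the proteasome features near 0 in cows of either BCS. For B5F125 against B5F75, 23 of 44 features lay above 0 with a median of 0.00, 0 were called against 0.46% of all genes, and 1 had P below 0.05. For B4F125 against B4F75, 19 of 44 lay above 0 with a median of −0.02, 0 were called against 0.473%, and 2 had P below 0.05; in both comparisons the lowest adjusted P in limma was 1. The interval lay inside 1.5-fold for 42 of 44 features (95.5%) in either BCS, beside 58.6% of all genes in BCS5 and 57.8% in BCS4. Over both BCS together, F125 against F75 gave 20 of 44 above 0 with a median of −0.01, 0 called against 0.434%, 0 with P below 0.05, and all 44 intervals inside 1.5-fold. As for the days, these shares describe the fit and do not bound the change between cows. In the 2 cow pairs that compared B5F125 with B5F75 directly, the median of the features was −0.03 and 0.22. For B4F125 with B4F75 it was 0.055 and 0.04.

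By role, the B5F125 against B5F75 medians were −0.03 in the alpha ring (1 of 7 genes above 0), 0.04 in the beta ring, 0.01 in the ATPase ring and 0.02 in the lid. For B4F125 against B4F75 they were 0.06 in the alpha ring (5 of 7 above 0), −0.07 in the beta ring, 0.00 in the ATPase ring and 0.01 in the lid. PSMA1 of the alpha ring had −0.43 (SE 0.18, adjusted P = 1) in BCS5 cows, but the 2 cow pairs that compared B5F125 with B5F75 directly gave −0.67 and 0.38, and its probe with a value on all arrays gave −0.06. Without the second of these pairs PSMA1 was at −0.69, past the threshold. In BCS5 cows the chaperone PSMD5 had the smallest P of the regulatory particle, with a log2 change of 0.13 (SE 0.14), and PSME1 that of the activators, with 0.13 (SE 0.10). In BCS4 cows PSME3, the nuclear member of the PA28 family, had −0.22 (SE 0.11, adjusted P = 1), and all 4 activators lay below 0.

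Averaged over the days, PSMB1 probe 2 in BCS4 cows stood farthest from 0 of the proteasome features in the feeding comparisons within a BCS. On the 3 arrays of the first cow pair that held B4F125 and B4F75 directly its log2 ratio was −0.04 at −7 d, −0.11 at 7 d and −0.47 at 28 d. On those of the second pair it was −1.08, −0.94 and −0.45. All 6 arrays lay below 0, the second pair farther than the first. In BCS5 cows the first pair gave 0.80, −0.15 and 0.36 for B5F125 over B5F75 and the second −0.21, −0.20 and 0.09, so that 3 of 6 arrays lay above 0. With all 12 same-day pairs in the fit the change was −0.44 in BCS4 (SE 0.15, 95% interval −0.75 to −0.14, adjusted P = 1), which is less than 1.5-fold, and 0.27 in BCS5 (SE 0.15, 95% interval −0.04 to 0.57). At 28 d alone it reached −0.59 in BCS4 (SE 0.21, 95% interval −1.02 to −0.16, adjusted P = 0.908) and was called lower, where 0.872% of all genes were called; it was −0.43 at −7 d and −0.31 at 7 d, neither of them called. In the other 5 comparisons of feeding at a day 0 features were called, against 0.673% of all genes at −7 d, 1.08% at 7 d and 0.386% at 28 d in BCS5 and 0.48% at −7 d and 1.01% at 7 d in BCS4. The call at 28 d was lost when any 1 of 9 of the 16 cow pairs was left out.

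By the same thresholds, the response of PSMB1 probe 2 to feeding differed between the BCS, although it did not after adjustment over all genes. The difference of the responses, B5F125 against B5F75 less B4F125 against B4F75, was 0.71 (SE 0.21, 95% interval 0.28 to 1.14, adjusted P = 0.999). It was called, as the only feature of 44, in this comparison, in which 0.507% of all genes were called, and 3 of 44 had P below 0.05. It was called with each of the 16 cow pairs left out in turn (0.60 to 0.82), but on the arrays that held both feeding levels of 1 BCS alone the difference was 0.63 and not called. By day the difference was 0.73 at −7 d, 0.52 at 7 d and 0.88 at 28 d (SE 0.30 each), and it was called at 28 d, where 0.653% of genes were, though not without any 1 of 3 of the cow pairs. At −7 and 7 d 0 features were called, against 0.426 and 0.987%. Between the treatments, probe 2 had 0.43 in B5F125 against B4F125 (95% interval 0.13 to 0.74) and −0.28 in B5F75 against B4F75 (95% interval −0.58 to 0.03), neither of which was called (0.46 and 0.233% of all genes). The other 2 with P below 0.05 were PSMA1 (−0.60), whose probe with a value on all arrays gave −0.05, and PSME3 (0.33).

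Probe 1 of the same written name had values near 0, although the difference between the probes was not tested. It had −0.07 in BCS4 and a difference between the BCS of 0.02. On the 6 direct BCS4 arrays it ranged from −0.37 to 0.41, on both sides of 0. Whether either probe belongs to PSMB1, a standing beta subunit, or to PSMB10, the immunoproteasome form of a cutting subunit, is not given by the annotation. The array-to-array residuals of both probes were therefore set against those of other genes. Over the 48 arrays the residuals of probe 2 had a correlation of 0.52 with PSMB8, against −0.03 for probe 1. The residuals of probe 1 had 0.69 with PSMB7 and 0.55 with PSMB5, which carry the standing cutting sites, against 0.20 and 0.03 for probe 2. PSMB6, the other standing cutting subunit, did little to separate them (0.24 for probe 1 and 0.17 for probe 2). Nor did PSME2 (0.43 and 0.42) or PSME1 (0.20 and 0.19). With PSMB9 probe 1 had 0.18 and probe 2 had 0.405, closer together than with PSMB8. Some values shifted when trends with spot brightness were removed by lowess, a step chosen after seeing the data. Probe 1 and probe 2 then had 0.11 and 0.48 with PSME2, and 0.14 and 0.24 with PSMB6. With PSME1 they had −0.13 and 0.18, and with PSMB9 0.14 and 0.44. With PSMB7 they had 0.50 and 0.26, with PSMB5 0.31 and −0.05, and with PSMB8 −0.24 and 0.51. The points share arrays, labelling and hybridisation, so these values are a description.

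PSMB8 and PSMB9, immunoproteasome subunits that were not among the members, were compared beside probe 2. PSMB8 lay below 0 on 6 of 6 arrays that held B4F125 and B4F75 (−1.14 to −0.04) and PSMB9 on 5 of 6 (−0.86 to 0.32). These arrays are only 2 cow pairs, each on 3 days. In the fit they had −0.45 (SE 0.15) and −0.42 (SE 0.14) in BCS4, both short of 1.5-fold, and 0.22 and 0.00 in BCS5. The difference between the BCS was 0.66 for PSMB8 (SE 0.22, adjusted P = 0.999), which was called, and 0.43 for PSMB9 (SE 0.19, adjusted P = 0.999), which was not. In BCS4 at 28 d PSMB8 was called lower (−0.61) and PSMB9 had −0.50. The list of interferon-responsive genes, which holds PSMB8 and PSMB9, lay below 0 in B4F125 against B4F75 for 15 of 15 measured genes with a median of −0.31, where 51.6% of all genes lay below 0. Of these, 5 had P below 0.05 and 0 were called. At 28 d 13 of the 15 lay below 0 with a median of −0.46, and 4 were called lower, where 0.872% of all genes were called. In the difference between the BCS 14 of 15 lay above 0 (median 0.37) and 1 was called, against 0.507%. For B5F125 against B5F75, 9 of 15 lay above 0 with a median of 0.01. The genes of the list were measured on the same arrays, so these counts do not stand for 15 separate observations. The list was chosen with earlier results of these data known. Of the markers of other cell types, 0 were called in B4F125 against B4F75 or in the difference between the BCS. For B4F125 against B4F75 7 of 8 neutrophil markers (median −0.23) and 7 of 7 endothelial markers (−0.10) lay below 0. In the difference between the BCS 10 of 10 macrophage markers (0.34), 7 of 8 neutrophil markers (0.28), 4 of 4 T and NK cell markers (0.23) and 3 of 3 B and plasma cell markers (0.04) lay above 0, whereas 5 of 5 cholangiocyte markers lay below 0 (−0.44). Their part in the values of probe 2 was not tested.

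**Figure D4:**
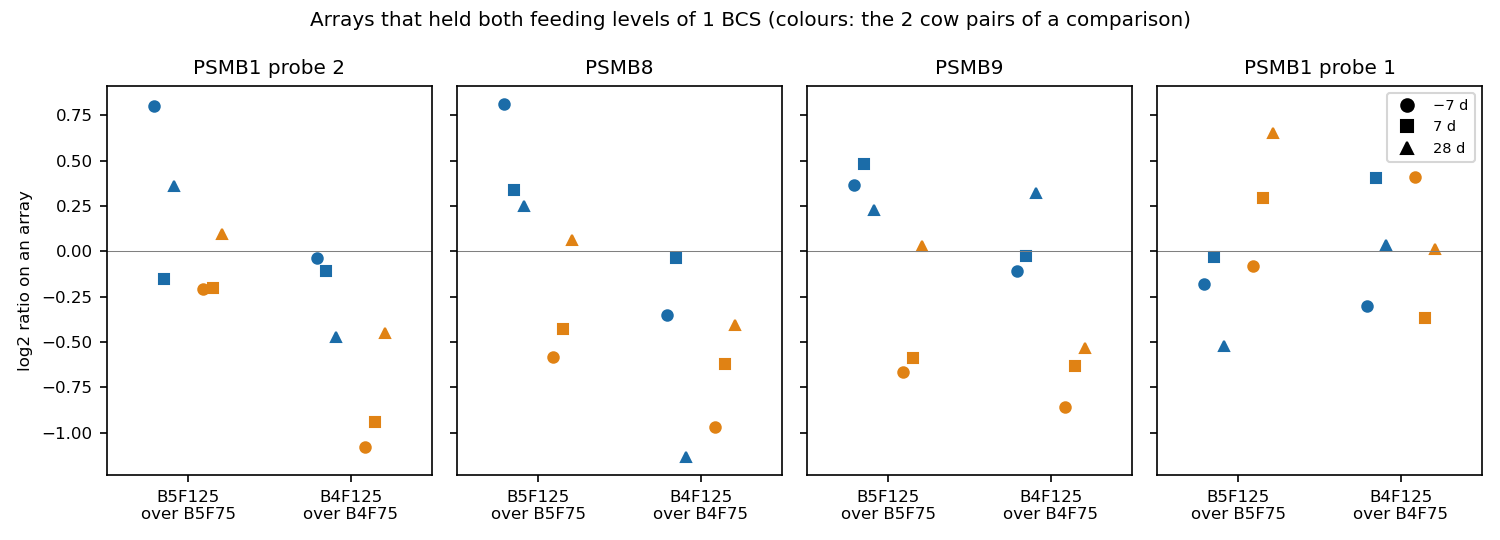
Log2 ratio (y axis) of PSMB1 probe 2, PSMB8, PSMB9 and PSMB1 probe 1 on the arrays that held both feeding levels of 1 BCS (x axis), with colour for the 2 cow pairs of a comparison and symbol for the day. Probe 2 and PSMB8 lie below 0 on all 6 arrays of B4F125 over B4F75, while probe 1 lies on both sides of 0.

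At 28 d the proteasome features lay mostly on 1 side of 0 with feeding when both BCS were averaged. F125 against F75 gave 8 of 44 features above 0 and 36 below 0 at 28 d, beside 50.2% below 0 over all genes, but the median was only −0.05, 0 were called against 0.426%, and 1 had P below 0.05. At −7 d 27 of 44 lay above 0 and at 7 d 23 of 44, with 0 called on either day (0.546 and 0.74% of all genes). The features do not vary independently, so these counts do not stand for 44 separate observations. At 28 d 0 of 7 alpha genes, 1 of 8 beta features, 0 of 4 activators and 6 of 24 regulatory features lay above 0. The arrays behind it disagreed. Of the 2 direct B5F125 over B5F75 arrays at 28 d, the median of the 44 features was −0.24 on 1 array (7 of 44 above 0) and 0.39 on the other (43 of 44), and the B4F125 over B4F75 arrays had −0.16 and 0.03. The difference between the responses at 28 and −7 d had a median of −0.09 with 35 of 44 below 0, and 0 called against 0.74%.

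BCS itself was not followed by any feature past the threshold. For BCS5 against BCS4, 27 of 44 lay above 0 with a median of 0.01, 0 were called against 0.187% of all genes, 0 had P below 0.05 and the lowest adjusted P was 1. The interval lay inside 1.5-fold for 43 of 44 features (97.7%), beside 75.1% of all genes, a share that again describes the fit and does not bound the change between cows. The core had a median of 0.05 with 12 of 16 above 0, the regulatory particle −0.01 with 11 of 24, and the 4 activators lay above 0 (0.02). PSMA6 had the smallest P of the core (0.08, SE 0.06), and the 8 cow pairs that held both BCS ran from −0.10 to 0.30 with 6 above 0. PSMD1 probe 2 had the smallest of the regulatory particle (−0.28, SE 0.16), with pairs from −0.91 to 0.35 and 6 of 8 below 0. PSME2 had 0.09 (SE 0.07), with pairs from −0.06 to 0.39. On single days 0 features were called, against 0.313% of genes at −7 d, 0.893% at 7 d and 0.273% at 28 d.

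The other genes of the ubiquitin and proteasome pathway also lay near 0 between days and treatments, with few calls. Of 45 measured genes of a list of 46, 17 lay above 0 at 7 against −7 d (median −0.03, 1 with P below 0.05) and 19 at 28 against −7 d (median −0.03, 3 with P below 0.05). RPS27A, 1 of the genes that encode ubiquitin itself, joined to a ribosomal protein, was called higher at 28 against −7 d (0.85, SE 0.26, adjusted P = 0.194), the only call of 45 genes, near the 2.08% of all genes called. PSMG3, a chaperone of core assembly, had −0.32 (adjusted P = 0.362) at 28 against −7 d, and PSMF1, an inhibitor of the core, had −0.48 (adjusted P = 0.54) at 7 against −7 d. With feeding averaged over the days 0 of 45 were called in either BCS, against 0.46% of all genes in BCS5 and 0.473% in BCS4, with 2 at P below 0.05 in BCS4, namely PSMB8 and PSMB9, and 0 in BCS5. For BCS 0 were called and 0 had P below 0.05. In the difference of the feeding responses between the BCS 1 was called, PSMB8, against 0.507% of all genes.

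Across arrays the subunits moved together by particle. The residuals of 2 proteasome features, left after treatment and day were fitted, had a mean correlation of 0.21 over the 892 pairs of features on all 48 arrays that had different written names, against 0.01 for all genes measured on 48 arrays, and 18% of the pairs exceeded 0.5 against 2.39%. The mean was 0.34 both within the core and within the regulatory particle, but 0.10 between them. The core and regulatory medians lay on opposite sides of 0 on 18 of the 48 arrays, farthest apart by 0.85 for the second B4F125 over B4F75 pair at 7 d, at −0.34 for the core and 0.51 for the regulatory particle. PSMA2 of the alpha ring and PSMB4 of the beta ring had 0.82, and PSMC1 and PSMD1 probe 6 had 0.87, the highest of all, whereas PSMA2 and the lid subunit PSMD7 had −0.48, the lowest. Some features leaned to the other particle. The ATPase PSMC6 averaged 0.36 with the core and −0.04 with the regulatory particle, and PSMD14, the deubiquitinase of the lid, 0.43 and 0.26. PSMB2, a beta subunit, averaged 0.16 with the core and 0.43 with the regulatory particle. PSMB11 (−0.04) and PSMD7 (0.05) had the lowest mean with all others, followed by PSMB6 (0.06) and PSMB1 probe 2 (0.08). The arrays also carry trends with spot brightness. When these were removed by lowess, a step chosen after seeing the data, the mean was 0.10 over all pairs, 0.26 within the core, 0.23 within the regulatory particle and −0.02 between them. Of all pairs of features 9.98% then exceeded 0.5, against 1.99% for all genes, whose mean was 0.01.

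**Figure D5:**
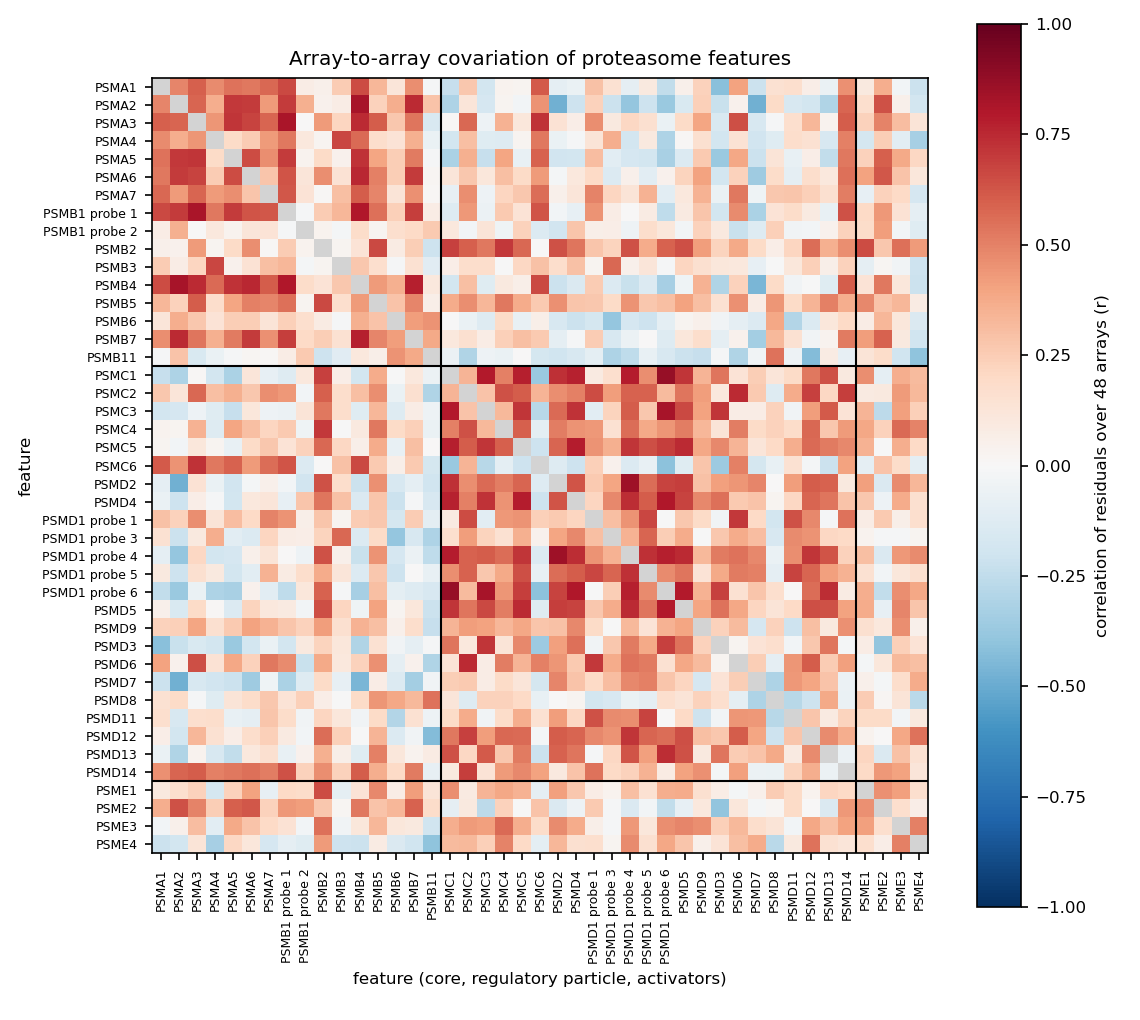
Correlation of residuals over 48 arrays (colour, from −1 to 1) between each pair of the 43 proteasome features with a value on all arrays, with black lines between the core, the regulatory particle and the activators. The core and the regulatory blocks are warm (mean 0.34 each) and the field between them is pale (mean 0.10); PSMC6 and PSMD14 lean to the core and PSMB2 to the regulatory block.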

How the data were processed

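Liver RNA of 32 cows was hybridised in pairs to 48 two-colour Agilent 44K Bovine (V2) arrays. The authors scanned the slides with GenePix, left out bad spots and deposited, for each spot, the log2 ratio between its channels, or a blank. Lowess and array centring are named in the methods for the authors' own model, but the deposited array medians ran from 0 to 0.521, so neither is in these values. Gene names came from the authors' annotated table through its spot numbers, and its own 48 value columns, named by slide position, were not used. The direction of the ratios is not stated. Cy5 over Cy3 was taken from the convention of the scanner software alone, and was not checked further. No genome build is named, so no positions are given.

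Names that had lost a 0 were restored for 361 genes where the RefSeq bovine gene table allowed 1 reading, and 289 names with several readings and 24 turned into dates were left out. Each array was centred on its median, probes of a gene were averaged, and 15019 genes with a value on at least 24 arrays were fitted in limma 3.58.1 (R 4.3.3) with 12 groups of treatment and day, a dye term and the cow pair as a random block (correlation 0.13). Ratios were turned so that a pair ran the same way on its arrays. Groups came from the sample titles, and P-values were adjusted by Benjamini-Hochberg over all genes tested. Array number and blank spots limit the precision, and brightness was recovered only as a lower bound (Python 3.11.15, pandas 2.3.3, statsmodels 0.14.6 for lowess). The fit was tested on simulated data.

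Members by name are all accounted for by role. Values by cow pair are given for members at P of at most 0.01 in a comparison, otherwise for the member of each particle with the smallest P. PSMD2, PSMD4, PSMC5, PSMA3 and other features named for their spread or correlation were picked with their values in view. The members and all lists were chosen with earlier results of these data known. Alternatives covered probes, centring, scaling, turning, block, dye term, array minimum, array weights, 1 value per cow pair, each cow pair left out, the arrays used, the call rule and the direction, and, chosen after seeing the data, lowess on brightness and probes with a value on all arrays.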

Additional observations from a re-analysis of the deposited data

Results flagged for a closer look

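PSMA7, a subunit of the alpha ring, had 1 cow pair far from the others at 28 against 7 d. The B4F75 pair was at 0.558, while the pairs of B5F125, B5F75 and B4F125 lay between 0.219 and 0.236. The gap was 0.95 of the whole range of the 4 pairs. Of 16 sets of cow pairs looked at, 1 stood apart in this way, and chance gives about 1 in 20.

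PSMB1 probe 2, which reads PSMB1 or PSMB10, differed between BCS5 and BCS4 in its response to prepartum feeding. The difference was 0.71 over the 3 days (SE 0.21) and 0.88 at 28 d (SE 0.30), both with an unadjusted P of at most 0.01 and past 1.5-fold for the interaction term in limma. The response was 0.27 in BCS5 cows and −0.44 in BCS4 cows. With Benjamini-Hochberg adjustment over all genes neither passed 0.05.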

How the results depend on the processing

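Of the summaries recomputed over the alternatives (median change of the 44 features, or how many were called), 256 kept their value within the spread between cow pairs or their count within 1.5 times, and 19 moved. With an adjusted P below 0.05 as the rule, 0 features were called for BCS by feeding, 0 for feeding at each day, 0 for BCS by feeding at each day and 0 within treatments between days, instead of 1, 1, 1 and 2. Calls within treatments between days numbered 4 with each probe on its own, 4 without centring, 1 with scaled arrays, 1 with ratios left unturned, 1 without the block, 1 after lowess and 0 with probes on all arrays. Calls for feeding at each day numbered 2 with scaled arrays, 2 with array weights and 0 without the dye term, and those for BCS by feeding at each day 2 with each probe on its own and 2 after lowess. Lowess and the probe filter were chosen after seeing the data. Without centring the median at 28 against −7 d was −0.103 instead of −0.02. On the 12 arrays that held both feeding levels of 1 BCS the median for B5F125 against B5F75 was 0.1165 instead of 0.00, and 0 features were called for BCS by feeding; fewer arrays enter there. With 1 cow pair left out, calls ranged from 0 to 1 at 28 against −7 d, 0 to 1 for B5F125 against B5F75, 1 to 2 for BCS by feeding, 0 to 2 for feeding at each day, 0 to 3 for BCS by feeding at each day and 1 to 5 within treatments. PSME1 at 28 against 7 d (0.03) turned to −0.14 with 1 probe alone and −0.0056 after lowess, and ranged from −0.16 to 0.17 with 1 cow pair left out. PSMB1 probe 2 for BCS by feeding stayed between 0.60 and 0.82 in all 16 leave-outs. The cause of these shifts was not tested. With Cy3 over Cy5, every sign turns. The labels give cow numbers and no replicate numbers, and the pairing entered the fits reported as the cow pair block. Without it, of the medians and counts, only the count within treatments moved, and PSMD3 in B5F125 was no longer called. Single dim spots limit PSMB6 and PSMD3.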
